A study of Nannochloropsis oceanica with 18 samples.

Results

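The earliest comparison of very low with high CO2 in *Nannochloropsis oceanica*, a unicellular oleaginous marine alga, was made 3 h after the cultures were split. Its members were the 7845 genes, of 9756 in the deposited tables, with a mean of at least 10 FPKM (fragments per kilobase of transcript, scaled to the mapped fragments of a library) in either the very low CO2 or the high CO2 libraries of 3 h. For comparison, the same rule took 7932 genes at 6 h, 8409 at 12 h and 8220 at 24 h.

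All libraries came from strain IMET1, with no genetic change, grown in liquid medium under continuous light. VLC cultures were bubbled with 0.01% CO2 and HC cultures with 5% CO2, and 0 h samples were taken at 5% CO2 before the split, after cells had been washed and put into fresh medium. VLC at 3 h and HC at 3 h had 2 libraries each, among 18 libraries of 9 groups (VLC and HC at 3, 6, 12 and 24 h, and 0 h). The study kept 3 parallel cultures per condition, and each group had 2 libraries. Which culture gave which library is not given in the sources used here, so libraries of one condition at different times may come from the same culture.

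Algae in water meet a slow supply of CO2, and most of them run carbon concentrating mechanisms that raise CO2 around Rubisco. A biophysical mechanism relies on bicarbonate transporters and on carbonic anhydrases, which interconvert CO2 and bicarbonate. A C4-like route instead fixes bicarbonate into oxaloacetate through phosphoenolpyruvate carboxylase (PEPC), and the enzymes phosphoenolpyruvate carboxykinase (PEPCK), malic enzyme and pyruvate, phosphate dikinase (PPDK) release the carbon again or rebuild phosphoenolpyruvate. When CO2 is scarce Rubisco also takes up oxygen, and photorespiration recycles the product.

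The HC libraries of 3 h differed from each other more than those of any other group. Among genes with a mean of at least 10 FPKM in the group, the median absolute log2 difference between replicates was 0.23 in HC at 3 h and 0.10 in VLC at 3 h, and it was between 0.05 and 0.10 in the other 7 groups. In HC at 3 h 65 genes differed by at least 2-fold between replicates, against 10 genes in VLC at 3 h and at most 12 genes in any other group. Over the 7845 genes, the root mean square log2 difference between HC replicate 2 and HC replicate 1 was 0.38. HC replicate 2 lay closer to the VLC libraries of 3 h, at 0.32 and 0.34, than to its own partner. HC replicate 1 lay 0.44 and 0.47 from the VLC libraries. HC replicate 1 was also nearer to the 0 h libraries (0.67 and 0.70) than HC replicate 2 was (0.72 and 0.76). The read totals that the study lists for its libraries were not used here, and the part of depth in this spread was not tested. Actin-related gene g3056, used by the study as a qPCR reference, had 35.2 and 42.8 FPKM in VLC and 33.4 and 44.0 FPKM in HC (log2 0.02 ± 0.13, limma adjusted p = 0.933).

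Of the 7845 genes, 76 were called different between VLC and HC at 3 h (0.969%), 55 higher (0.701%) and 21 lower (0.268%). A call here needed an adjusted p of at most 0.05 by limma, with Benjamini-Hochberg adjustment over the 7845 genes, and at least a 2-fold difference in FPKM + 1 taken as log2. The added 1 makes differences of weakly expressed genes look smaller than they were. The median gene did not shift (log2 -0.02). Gene g10113 was listed at 0 in both HC libraries and is given no ratio. The other 54 higher genes lay between log2 1.01 and 4.37 (median 1.37), and 7 of them rose at least 4-fold. The 21 lower genes lay between log2 -4.55 and -1.02 (median -1.46), and 4 fell at least 4-fold. In each of the 76 genes the VLC libraries did not overlap the HC libraries, but this alone was common, since VLC lay above HC without overlap in 21.9% of all tested genes and below it in 25.5%. Of the 55 higher genes 23 passed the FPKM filter through the VLC mean alone, and of the 21 lower genes 10 passed it through the HC mean alone. Over all 7845 tested genes, 185 passed it through the VLC mean alone and 197 through the HC mean alone. No annotation was given for 13 of the 55 higher genes and 13 of the 21 lower genes, against 2224 of the 7845 tested.

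Because the HC pair was uneven, every call was also made with either HC library left out. With HC replicate 2 alone, 60 genes were higher (0.768% of those tested) and 18 lower (0.23%). With HC replicate 1 alone, 76 genes were higher (0.958%) and 82 lower (1.03%). The calls shared by the fit with both HC libraries and both fits with 1 HC library were 38 of the 55 higher genes and 12 of the 21 lower genes, and these are described below as called with either HC library. Of the higher genes 10 were lost without HC replicate 1 and 7 without HC replicate 2, and of the lower genes 8 and 1. When the spread was estimated from the 4 libraries of 3 h alone, 39 genes were higher and 12 lower.

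**Figure D1:**
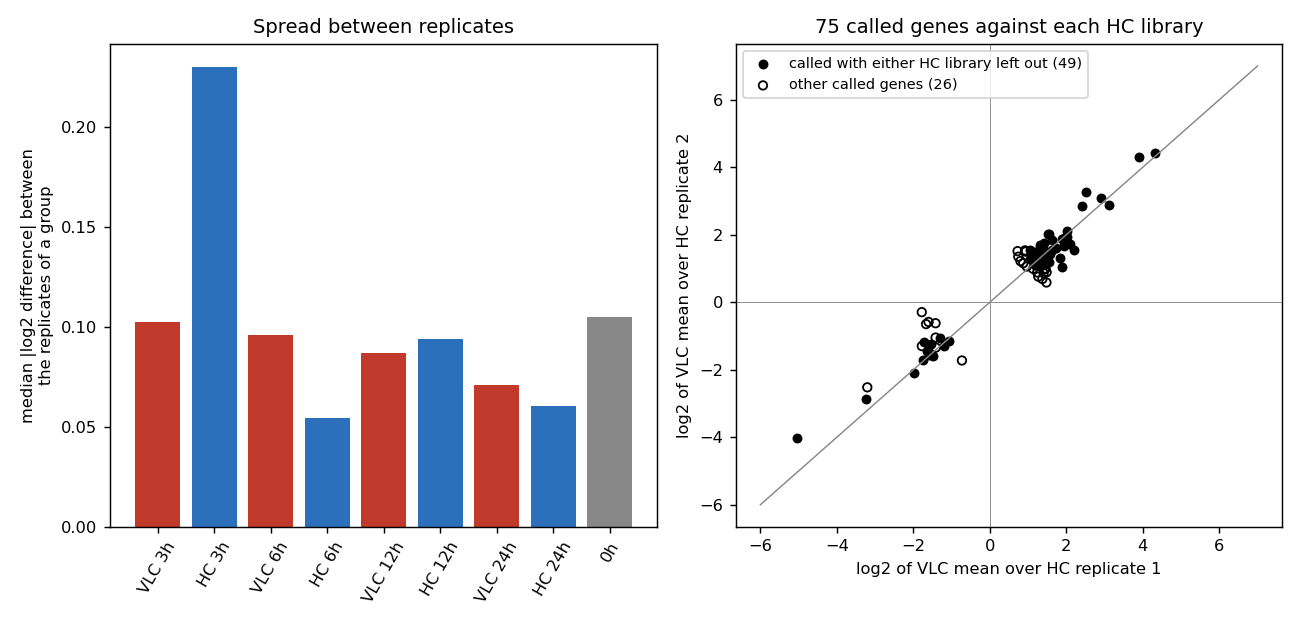
Left, the median absolute log2 difference (FPKM + 1) between the 2 replicates of each group, over genes with a mean of at least 10 FPKM in that group, which was 0.23 in HC at 3 h against at most 0.10 elsewhere. Right, each called gene by the log2 ratio of the VLC mean to HC replicate 1 (horizontal) and to HC replicate 2 (vertical), for the 75 called genes not listed at 0 in either group, where the 49 filled points are genes called with either HC library left out, the 26 open points are the others and the line marks equal ratios.

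All of the carbon genes called at 3 h were in the C4-like list. Smaller differences that passed the adjusted p alone also lay in other lists. With the spread of the 4 libraries of 3 h alone, none of the smaller differences of the carbon lists passed the adjusted p of limma. The values ran from 0.0881 for the ABC transporter gene g6647 to 0.476 for ornithine decarboxylase g9591. Called gene g5453 also missed it in that fit (0.0881). PEPCK (g6884, bases 920653 to 924207 of scaffold00247 in the coordinates of the deposited tables), which turns oxaloacetate into phosphoenolpyruvate and CO2, had 378 and 367 FPKM in VLC and 137 and 152 FPKM in HC. The lower VLC library was 2.42 times the higher HC library, and the gene rose (log2 1.36 ± 0.13, limma adjusted p = 1.57e-05). The PPDK gene g3407, whose product rebuilds phosphoenolpyruvate from pyruvate, had 13.5 and 14.4 FPKM in VLC and 1.79 and 1.08 FPKM in HC, so that it was low in HC and passed the 10 FPKM filter through VLC (log2 2.63 ± 0.14, limma adjusted p = 4.90e-08). A further gene annotated as PPDK, g5453, had 163 and 173 FPKM in VLC and 62.8 and 92.1 FPKM in HC and also rose (log2 1.13 ± 0.22, limma adjusted p = 0.00575). Its call was less firm, because the HC libraries differed and the log2 difference was 0.86 against HC replicate 2 alone and 1.41 against HC replicate 1 alone. The adjacent PPDK gene g5454 had 65.4 and 56.9 FPKM in VLC and 42.3 and 34.6 FPKM in HC, without overlap, but missed the threshold (log2 0.66 ± 0.22, limma adjusted p = 0.0594).

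PEPC (g5140), the entry step of a C4-like route, had 144 and 132 FPKM in VLC and 170.3 and 168 FPKM in HC. It was lower in both VLC libraries, by less than 2-fold (log2 -0.29 ± 0.07, limma adjusted p = 0.0126). The malic enzyme genes, whose products release CO2 from malate, went both ways by less than 2-fold. Gene g8325 had 75.4 and 72.8 FPKM in VLC and 56.4 and 51.0 FPKM in HC (log2 0.46 ± 0.09, limma adjusted p = 0.00446). Gene g3463 had 27.3 and 21.95 FPKM in VLC and 40.2 and 31.6 FPKM in HC (log2 -0.52 ± 0.14, limma adjusted p = 0.0248; adjusted p = 0.171 by limma without HC replicate 1). The remaining malic enzyme gene g2252 (log2 -0.17 ± 0.09, limma adjusted p = 0.198) and the malate dehydrogenase genes g7798 (log2 0.14 ± 0.07, limma adjusted p = 0.162) and g9301 (log2 0.04 ± 0.08, limma adjusted p = 0.795) did not pass the test. Thus 3 of the 10 C4-like genes were called, all higher, beside 0.969% of all tested genes, with a median of log2 0.30 over the list.

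None of the 5 carbonic anhydrase genes was called by limma at 3 h (0.969% of all tested genes were), while 4 had an unadjusted p under 0.05 (3 higher and 1 lower). Over all tested genes 32% had an unadjusted p under 0.05, 15% higher and 17% lower. With lists this short, counts of this kind say little about a list. CA5 (g6125), the alpha-type enzyme, had 282 and 299.8 FPKM in VLC and 214 and 168 FPKM in HC, a non-overlapping difference that missed the threshold (log2 0.62 ± 0.23, limma adjusted p = 0.0905). The gene had 324 and 329.9 FPKM at 0 h, so that VLC libraries lay near the 0 h level and HC libraries under it. At 6 h its VLC/HC difference was log2 4.17 (limma adjusted p = 3.14e-08), with uneven VLC libraries (mean 1124 and SD 574 FPKM). CA2 (g2018) had 20.9 and 22.4 FPKM in VLC and 16.0 and 13.4 FPKM in HC, passing the adjusted p but not the 2-fold rule (log2 0.53 ± 0.10, limma adjusted p = 0.00478). The gamma-type gene g1084 (log2 0.21 ± 0.09, limma adjusted p = 0.137), CA4 (g4812; log2 -0.28 ± 0.12, limma adjusted p = 0.111) and CA3 (g2209, annotated as gamma-type in the deposited tables; log2 -0.06 ± 0.09, limma adjusted p = 0.704) did not pass, and the sign of CA3 turned with the HC library used (log2 0.09 without HC replicate 1).

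Among 11 candidate bicarbonate transporter genes 8 were expressed enough to be tested, and limma called none of them at 3 h; 1 higher and 2 lower genes had an unadjusted p under 0.05, beside 32% of all tested genes. The ABC transporter gene g6647 had 35.1 and 34.7 FPKM in VLC and 18.2 and 20.8 FPKM in HC, a difference that passed the adjusted p at less than 2-fold (log2 0.82 ± 0.09, limma adjusted p = 8.54e-05). Gene g544 is listed by the study as an LCIA homolog and annotated in the deposited tables as a protein of unknown function. It had 33.9 and 33.0 FPKM in VLC and 46.2 and 55.5 FPKM in HC and was lower by less than 2-fold (log2 -0.58 ± 0.10, limma adjusted p = 0.00209). SLC4-type genes BCT1 (g19; 0.13) and BCT2 (g1855; -0.10), annotated as boron transporters in the deposited tables, had log2 differences near 0.

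Genes of photorespiration had a median of log2 0.27 at 3 h against 0.86 at 6 h, and limma called none of the 10 tested at 3 h (4 higher and 1 lower at an unadjusted p under 0.05, beside 32% of all tested genes). GDC-T (g176), a glycine decarboxylase subunit, had 112 and 123 FPKM in VLC and 70.4 and 96.1 FPKM in HC (log2 0.51 ± 0.14, limma adjusted p = 0.0256). Glycerate kinase g1836, which returns glycerate to the Calvin cycle, had 20.7 and 17.2 FPKM in VLC and 13.4 and 14.3 FPKM in HC (log2 0.42 ± 0.11, limma adjusted p = 0.0258). In the opposite direction g9801 had 12.6 and 17.9 FPKM in VLC and 20.9 and 20.6 FPKM in HC (log2 -0.44 ± 0.13, limma adjusted p = 0.0354). The study lists g9801 as the glycine decarboxylase subunit GDC-P, whereas the deposited tables annotate it as a putative isoprenylcysteine carboxyl methyltransferase. All 3 differences were under 2-fold. Without HC replicate 1 none of them passed the adjusted p of limma (0.195 for g176, 0.106 for g1836 and 0.114 for g9801). Phosphoglycolate phosphatase g10166, the first enzyme of the pathway, had 135 and 129 FPKM in VLC and 100.2 and 109 FPKM in HC (log2 0.33 ± 0.11, limma adjusted p = 0.067), and its difference at 6 h was log2 2.000. The VLC libraries of 6 h were uneven in g10166 (mean 207, SD 49.4 FPKM), glycolate oxidase g640 (210, 58.9) and g3637 (163, 55.2).

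In the tetrahydrofolate cycle, which carries the single-carbon units that photorespiration releases, formate-tetrahydrofolate ligase (g5846) had 118 and 112 FPKM in VLC and 65.2 and 75.4 FPKM in HC (log2 0.71 ± 0.18, limma adjusted p = 0.0203; adjusted p = 0.112 by limma without HC replicate 1), the largest difference of 5 genes and under 2-fold. The 7 tested genes of the ornithine urea cycle lay between log2 -0.25 and 0.42, with ornithine decarboxylase g9591 (log2 -0.25 ± 0.07, limma adjusted p = 0.0269) the 1 gene past the adjusted p. Of 17 organelle transporter genes 14 were tested, between log2 -0.65 for the triose phosphate translocator g6303 (26.4 and 31.6 in VLC against 54.6 and 38.5 in HC, FPKM) and log2 0.34 for the phosphoenolpyruvate translocator g10209 (20.5 and 22.8 in VLC against 24.4 and 11.5 in HC, FPKM). The mitochondrial complex I gene g4915 was at log2 0.25. By limma none of these 27 genes was called, with 5 higher and 3 lower at an unadjusted p under 0.05, close to the 32% of all tested genes. Over all carbon lists 60 of 68 genes were tested and 3 were called (0.969% of all tested genes), and the median log2 difference was 0.12, beside -0.02 over all tested genes.

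**Figure D2:**
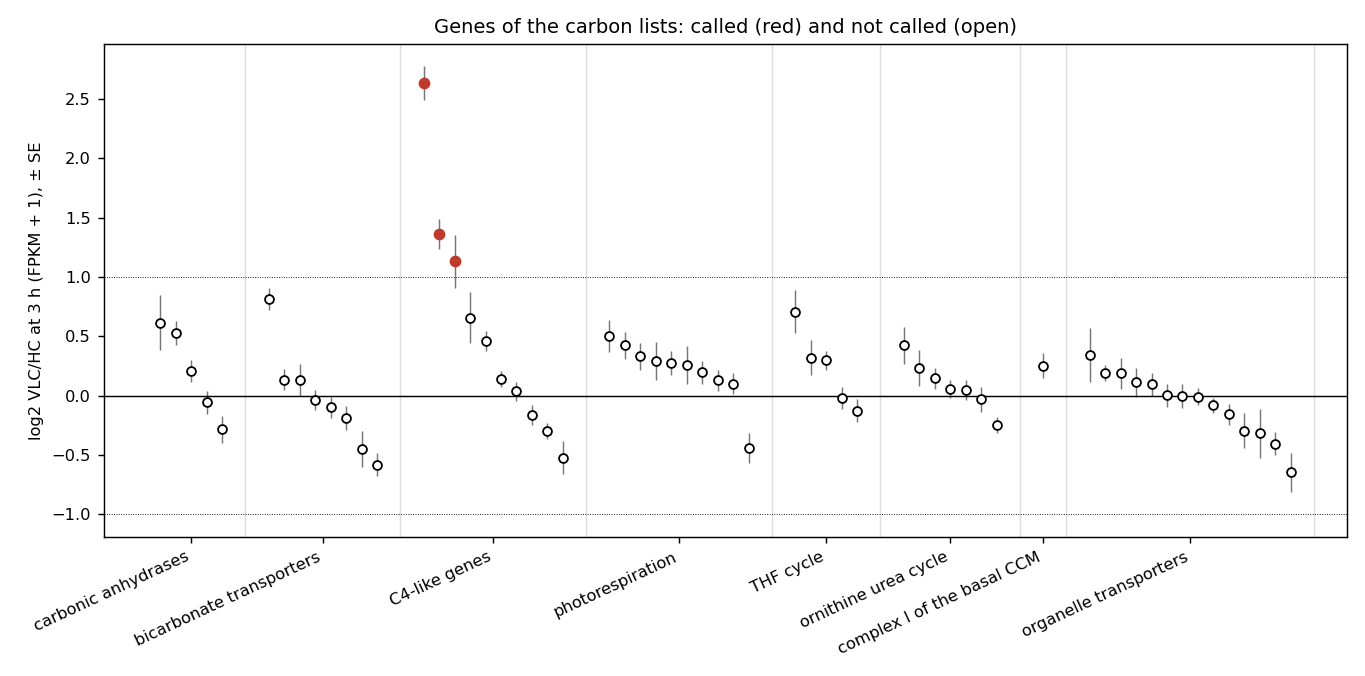
Log2 VLC/HC difference at 3 h on the log2(FPKM + 1) scale (points) with its standard error (bars) for each tested gene of the lists of carbon genes, in order of size within a list. Filled red points are the called genes g3407, g6884 and g5453, all in the C4-like list, and dotted lines mark the 2-fold rule.

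Outside these lists, further enzymes of carbon metabolism were also called. The following genes are grouped by the annotation of the deposited tables, after the calls were known. Isocitrate lyase (g8450), which splits isocitrate into glyoxylate and succinate in the glyoxylate cycle, had 56.1 and 62.1 FPKM in VLC and 21.5 and 21.9 FPKM in HC (log2 1.40 ± 0.13, limma adjusted p = 1.21e-05). Its neighbour g8451, annotated as a succinate:fumarate antiporter of the mitochondrial carrier type, had 31.0 and 37.1 FPKM in VLC and 14.1 and 12.2 FPKM in HC (log2 1.31 ± 0.16, limma adjusted p = 1.93e-04). They were 2.65-fold and 2.47-fold higher in VLC in FPKM + 1, and the replicates of either condition differed by at most 1.20-fold in FPKM. A cytosolic phosphoglycerate kinase (g8382), a step shared by glycolysis and gluconeogenesis, had 56.6 and 57.5 FPKM in VLC and 24.8 and 26.2 FPKM in HC (log2 1.13 ± 0.11, limma adjusted p = 1.26e-05). Pyruvate dehydrogenase kinase (g10046), which switches off the entry of pyruvate into the TCA cycle, had 22.1 and 25.5 FPKM in VLC and 11.01 and 9.12 FPKM in HC (log2 1.17 ± 0.14, limma adjusted p = 1.73e-04). These 4 genes were called with either HC library.

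The 12 largest rises included a ferredoxin gene and an oxidoreductase gene, beside g3407 above and genes of other or unknown annotation below. Ferredoxin gene g4849, a small iron-sulfur electron carrier, had 102 and 92.2 FPKM in VLC and 3.88 and 3.59 FPKM in HC, a 20.7-fold rise (log2 4.37 ± 0.14, limma adjusted p = 2.27e-10). A gene coding for an expressed unknown protein, g4842, lay on the same scaffold and had 267 and 242 FPKM in VLC and 16.0 and 12.0 FPKM in HC (log2 4.10 ± 0.22, limma adjusted p = 4.77e-08). An FAD-dependent pyridine nucleotide-disulfide oxidoreductase (g9771), a family of flavoenzymes that pass electrons between NAD(P)H and their substrates, had 30.9 and 34.5 FPKM in VLC and 3.48 and 2.99 FPKM in HC (log2 2.99 ± 0.12, limma adjusted p = 2.29e-09). The lower VLC library was 23.8, 15.1 and 8.86 times the higher HC library in g4849, g4842 and g9771. A further gene of that annotation, g7247, had 37.1 and 36.4 FPKM in VLC and 18.9 and 12.0 FPKM in HC (log2 1.23 ± 0.15, limma adjusted p = 2.05e-04) and lost its call without HC replicate 2.

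Sulfide-quinone oxidoreductase (g3322), which passes electrons from sulfide to quinones, had 204 and 188 FPKM in VLC and 42.1 and 66.4 FPKM in HC (log2 1.87 ± 0.15, limma adjusted p = 4.62e-06). The iron-sulfur subunit of the cytochrome b6-f complex (g9470), the complex between the photosystems, had 44.9 and 40.8 FPKM in VLC and 14.4 and 9.90 FPKM in HC (log2 1.76 ± 0.13, limma adjusted p = 2.15e-06). Both were called with either HC library. SufD (g877), a protein of iron-sulfur cluster assembly, had 101 and 100.5 FPKM in VLC and 38.3 and 62.3 FPKM in HC and was called with less certainty, since HC replicate 2 lay between (log2 1.03 ± 0.17, limma adjusted p = 0.0019; log2 0.69 without HC replicate 1). Coproporphyrinogen III oxidase (g5437), a step of heme and chlorophyll synthesis, had 316 and 295 FPKM in VLC and 126 and 180 FPKM in HC (log2 1.01 ± 0.13, limma adjusted p = 3e-04; log2 0.76 without HC replicate 1).

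Several higher genes carry annotations of nitrogen oxide or carbonyl chemistry. Hydroxylamine reductase (g7390), known from bacteria to reduce hydroxylamine to ammonia, had 347 and 319 FPKM in VLC and 126 and 108 FPKM in HC (log2 1.505 ± 0.12, limma adjusted p = 2.23e-06). Flavohemoglobin (g4885), which removes nitric oxide in bacteria and yeast, had 310.1 and 303 FPKM in VLC and 111 and 153 FPKM in HC (log2 1.22 ± 0.11, limma adjusted p = 8.07e-06); its difference fell under 2-fold without HC replicate 1 (log2 1.00). A glyoxylase (g9770), of a family that removes methylglyoxal, was the most abundant called gene in VLC, with 617 and 629 FPKM in VLC and 207 and 229 FPKM in HC (log2 1.51 ± 0.09, limma adjusted p = 8.81e-08). The glutathione S-transferase gene g1250 had 11.2 and 14.4 FPKM in VLC and 7.32 and 3.82 FPKM in HC (log2 1.11 ± 0.26, limma adjusted p = 0.0138). Without HC replicate 2 its difference fell under 2-fold (log2 0.71).

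Single genes annotated as regulators or stress proteins were also called. A Myb-like transcription factor (g434) had 36.5 and 38.8 FPKM in VLC and 8.51 and 8.005 FPKM in HC (log2 2.06 ± 0.12, limma adjusted p = 1.40e-07) and was the 1 called gene of 130 tested transcription factor genes, near the 0.969% of all tested genes. The serine/threonine kinase gene g10398 had 86.9 and 85.8 FPKM in VLC and 21.9 and 22.1 FPKM in HC (log2 1.92 ± 0.09, limma adjusted p = 1.70e-08). Replicates of both genes were nearly equal within each condition. Kinase genes of the calcium/calmodulin-dependent type rose as well, g5040 with 11.3 and 13.3 FPKM in VLC and 3.28 and 3.54 FPKM in HC (log2 1.59 ± 0.18, limma adjusted p = 8.54e-05) and g4166 with 9.52 and 11.7 FPKM in VLC and 3.25 and 4.85 FPKM in HC (log2 1.21 ± 0.16, limma adjusted p = 3.38e-04), and the call of g4166 was lost without HC replicate 1. The small heat shock protein Hsp20 gene g6268, of a family that keeps unfolding proteins soluble, had 189 and 211 FPKM in VLC and 34.1 and 20.03 FPKM in HC (log2 2.89 ± 0.22, limma adjusted p = 2.15e-06) and was the 1 called gene of 85 tested heat shock and chaperone genes, near the same share. Sulfolipid synthase SQD2 (g6721), which makes a sulfur-containing lipid of photosynthetic membranes, had 30.4 and 30.9 FPKM in VLC and 10.8 and 15.2 FPKM in HC (log2 1.20 ± 0.12, limma adjusted p = 1.80e-05; log2 0.97 without HC replicate 1).

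Among the 12 largest rises were also genes of unknown or general annotation. Gene g10113 had 45.3 and 154 FPKM in VLC and was listed at 0 in both HC libraries and both 0 h libraries. No fold change is given for it, its VLC libraries differed by 3.40-fold, and at 271 bases it was the shortest of the 76 genes. Gene g5781, without annotation, had 65.8 and 69.4 FPKM in VLC and 6.95 and 8.24 FPKM in HC (log2 3.00 ± 0.13, limma adjusted p = 3.89e-09). The major facilitator transporter gene g2681 had 9.68 and 12.6 FPKM in VLC and 1.98 and 2.15 FPKM in HC (log2 1.97 ± 0.16, limma adjusted p = 4.62e-06). Gene g6054 (12.0 and 12.8 in VLC against 2.16 and 3.06 in HC, FPKM; log2 1.90 ± 0.16, limma adjusted p = 5.96e-06) and hypothetical gene g1282 (33.4 and 34.1 in VLC against 8.44 and 8.43 in HC, FPKM; log2 1.88 ± 0.23, limma adjusted p = 1.88e-04) completed the set, each without overlap between VLC and HC.

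**Figure D3:**
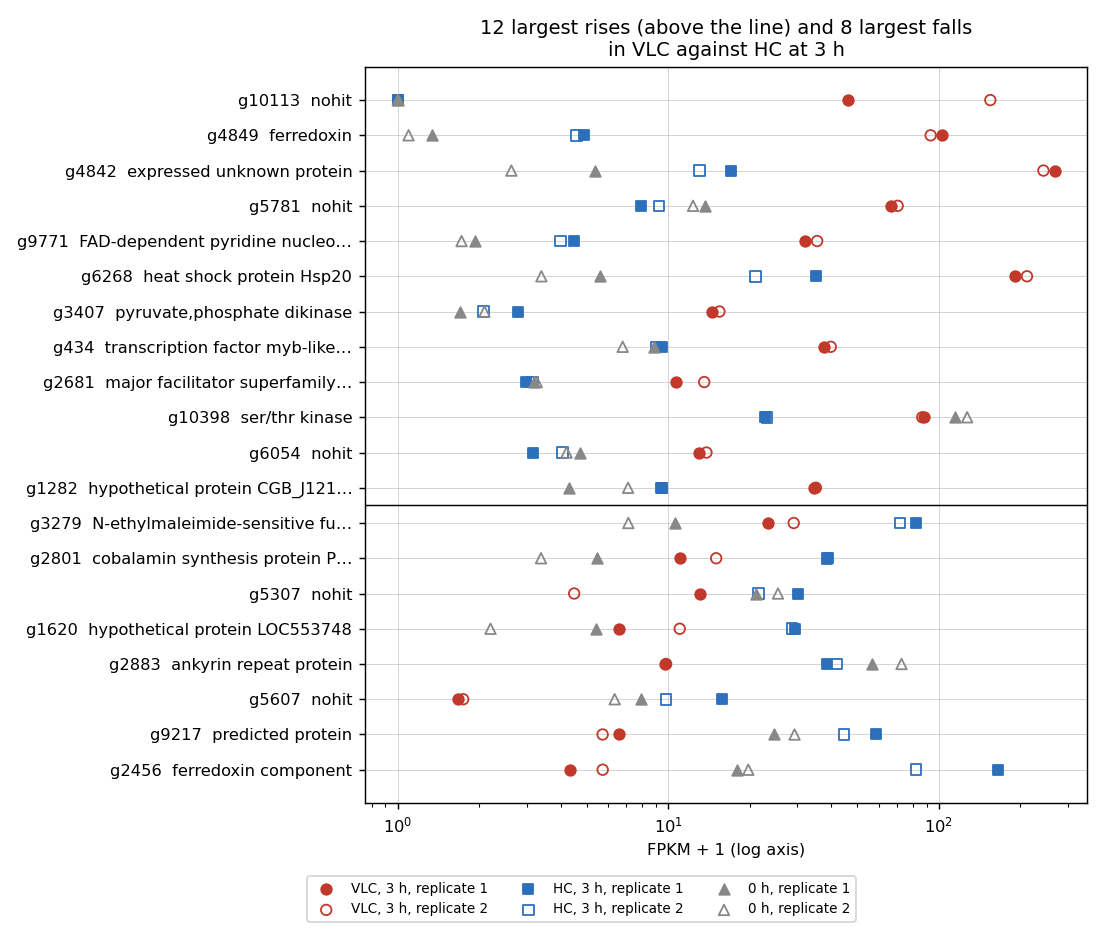
FPKM + 1 (log axis) in each library of VLC at 3 h (red circles), HC at 3 h (blue squares) and 0 h (grey triangles) for the 12 largest rises (above the line) and the 8 largest falls (below it), with filled marks for replicate 1 and open marks for replicate 2. In the rises the VLC libraries lie to the right of both HC libraries and in the falls to the left, and for g10398 the 0 h libraries lie above VLC.

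The deepest fall among called genes was that of g2456, annotated as a ferredoxin component, which had 3.33 and 4.72 FPKM in VLC and 165 and 81.2 FPKM in HC. Although the HC libraries differed by 2.03-fold, the lower of them was 17.2 times the higher VLC library (log2 -4.55 ± 0.23, limma adjusted p = 3.33e-08). Relative to 0 h the gene fell in VLC and rose in HC, having 16.9 and 18.7 FPKM in the 0 h libraries. Predicted protein gene g9217 had 5.55 and 4.72 FPKM in VLC and 57.3 and 43.6 FPKM in HC (log2 -3.06 ± 0.18, limma adjusted p = 1.35e-07). The ankyrin repeat gene g2883, of a protein-binding repeat family, had 8.74 and 8.81 FPKM in VLC and 37.4 and 40.9 FPKM in HC (log2 -2.04 ± 0.13, limma adjusted p = 2.50e-07). Gene g5607 had 0.671 and 0.744 FPKM in VLC and 14.7 and 8.81 FPKM in HC (log2 -2.86 ± 0.22, limma adjusted p = 2.15e-06); it was called with both HC libraries but was not tested without HC replicate 1, its remaining HC value being under 10 FPKM.

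Assimilatory nitrate reductase (g2405), which reduces nitrate to nitrite, had 66.0 and 65.0 FPKM in VLC and 152 and 164 FPKM in HC. Its replicates were close in both conditions. The standard error rests mainly on the spread pooled over groups, not on the 3 h replicates. For this gene it was the smallest of the 76 genes (log2 -1.26 ± 0.07, limma adjusted p = 3.62e-08). Gene g2405 was the 1 gene called of 19 tested nitrogen assimilation genes (median log2 -0.07), where 0.969% of all tested genes were called. The cobalamin synthesis P47K gene g2801, of a family of metal-handling GTPases, had 10.1 and 14.0 FPKM in VLC and 38.0 and 37.6 FPKM in HC (log2 -1.59 ± 0.19, limma adjusted p = 1.87e-04). N-ethylmaleimide-sensitive fusion protein gene g3279, an ATPase of vesicle fusion, had 22.3 and 28.1 FPKM in VLC and 81.2 and 70.7 FPKM in HC (log2 -1.56 ± 0.16, limma adjusted p = 2.74e-05). An FAD binding domain gene (g6511) had 16.8 and 20.6 FPKM in VLC and 53.9 and 58.2 FPKM in HC (log2 -1.54 ± 0.20, limma adjusted p = 2.77e-04). All 4 genes were called with either HC library.

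The other lower genes were not annotated or hypothetical. Hypothetical gene g1620 had 5.59 and 10.02 FPKM in VLC and 28.5 and 27.6 FPKM in HC (log2 -1.77 ± 0.32, limma adjusted p = 0.00364), and g5307 had 12.0 and 3.49 FPKM in VLC and 29.1 and 20.6 FPKM in HC (log2 -1.74 ± 0.44, limma adjusted p = 0.021), with VLC libraries 3.45-fold apart. Unannotated genes g6089 (73.8 and 79.0 in VLC against 160.2 and 170.4 in HC, FPKM) and g2089 (64.5 and 80.9 in VLC against 182 and 154 in HC, FPKM) were called with either HC library. In contrast g5542 (50.1 and 50.0 in VLC against 136 and 77.6 in HC, FPKM), g1582 (49.5 and 50.0 in VLC against 173 and 61.3 in HC, FPKM) and g4495 (606 and 579 in VLC against 1885 and 929.5 in HC, FPKM) rested on HC replicate 1, and without it their log2 differences were -0.62, -0.29 and -0.65. For g5298 (43.3 and 57.6 in VLC against 84.3 and 169 in HC, FPKM) it was HC replicate 2 that stood apart, and without that library the difference was log2 -0.74.

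The genes with the largest ratio between the HC libraries mostly had no annotation. Among genes with at least 10 FPKM in both HC libraries, 32 were at least 2-fold higher in HC replicate 1 and 18 in HC replicate 2. Gene g8087 had 166 and 130 FPKM in VLC and 755 and 174 FPKM in HC, and g1530 had 16.1 and 11.9 FPKM in VLC and 35.8 and 10.6 FPKM in HC. Gene g4616 had 11.9 and 29.6 FPKM in VLC and 41.5 and 13.2 FPKM in HC, and g1582, called lower, was the fourth. On the other side g7285 had 32.9 and 27.3 FPKM in VLC and 14.1 and 47.3 FPKM in HC, and a heat shock protein gene, g3144, had 85.4 and 92.2 FPKM in VLC and 44.0 and 107 FPKM in HC. Gene g5 had 39.8 and 37.9 FPKM in VLC and 20.3 and 50.7 FPKM in HC, and g7213 had 24.0 and 21.9 FPKM in VLC and 12.1 and 27.4 FPKM in HC. In these last 4 genes the VLC libraries lay between the HC libraries, and none of the 4 was called.

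Broad groups of genes, as taken by keywords, held calls at about the share of all tested genes. The keywords missed some called genes of these kinds. Kinase genes g10398 and g10046 and transporter gene g2681 are in none of the lists counted below. Of 15 lists taken by keywords from the deposited annotation, no list had more than 3 called genes, and over all of them 10 of 896 tested genes were called, 9 higher and 1 lower, beside 0.969% of all tested genes, and the median was log2 -0.02. Cytosolic ribosomal proteins (58 tested, median -0.05), light harvesting and photosystem genes (26, 0.05), TCA cycle enzymes (17, 0.12), aminoacyl-tRNA synthetases (46, 0.08), heat shock transcription factors (6, -0.07), proteasome subunits (45, -0.16) and lipid synthesis genes (85, -0.05) had no call by limma, with 14, 9, 3, 13, 2, 21 and 38 of their genes, in that order, at an unadjusted p under 0.05 (32% of all tested genes). The other lists were the Calvin cycle (31 tested, g8382 called), oxidant defence (74, g1250), membrane transporters (153, g8451), DNA replication and histones (41, g8449), kinases and cyclins (91, g5040, g2471 and g4166), nitrogen assimilation, transcription factors and chaperones.

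Within the light harvesting list, photosystem II genes g8119 (408 and 378 in VLC against 295 and 306 in HC, FPKM) and g3775 (1472 and 1439.7 in VLC against 1159.5 and 1070.3 in HC, FPKM) had the largest rises, by 1.31-fold and 1.31-fold (limma adjusted p = 0.00706 and 0.00808). Aureochrome 3 (g1931), a blue light-sensing transcription factor of this algal group, had 77.5 and 89.0 FPKM in VLC and 43.8 and 56.0 FPKM in HC (log2 0.73 ± 0.12, limma adjusted p = 0.00162), under 2-fold. In lipid synthesis a fatty acid desaturase (g7957) had 272 and 237 FPKM in VLC and 566 and 357 FPKM in HC (log2 -0.82 ± 0.16, limma adjusted p = 0.00489), and a fatty acid elongase (g6504) had 58.4 and 63.1 FPKM in VLC and 127 and 77.9 FPKM in HC (log2 -0.70 ± 0.15, limma adjusted p = 0.00939). Both lay lower in VLC than in either HC library, by under 2-fold in the fit with both HC libraries. Without HC replicate 2 they were at log2 -1.15 and -1.05, and without HC replicate 1 at -0.49 and -0.35. The largest rises of that list, acyltransferase genes g313 (log2 0.70 ± 0.25) and g5355 (0.67 ± 0.22), missed the adjusted p of limma (0.0717 and 0.0511). Without HC replicate 2 these rises were log2 0.34 and 0.44, and without HC replicate 1 they were 1.06 and 0.91. The iron-regulated transporter-like gene g9466 had 37.3 and 34.7 FPKM in VLC and 68.7 and 57.1 FPKM in HC (log2 -0.78 ± 0.10, limma adjusted p = 2.07e-04). With the spread of the 4 libraries of 3 h alone, none of the genes in this paragraph passed (limma adjusted p from 0.122 for g9466 to 0.362 for g313).

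At any size of difference, 1165 of the 7845 genes had an adjusted p of at most 0.05 (14.9%), 580 higher (7.39%) and 585 lower (7.46%). These counts moved with each library of 3 h, to 319 higher and 387 lower without VLC replicate 1, 225 and 184 without VLC replicate 2, 366 and 251 without HC replicate 1, and 1589 and 1643 without HC replicate 2. Among the keyword lists the share of lower genes was largest for DNA replication and histones, with 14 of 41 (34.1%), and for the proteasome, with 14 of 45 (31.1%), followed by lipid synthesis (16.5%). The lipid synthesis list went both ways, with 14 lower and 11 higher genes of 85. The DNA replication list had 2 higher genes and the proteasome list 0. The median log2 difference was -0.22 in the DNA replication list and -0.16 in the proteasome list. Without VLC replicate 1, VLC replicate 2, HC replicate 1 or HC replicate 2 in turn, 8, 4, 5 or 16 genes of the DNA replication list and 4, 3, 4 or 18 of the proteasome list were lower. Replication factor C subunit 5 (g3716), which loads the sliding clamp on DNA, had 57.2 and 42.6 FPKM in VLC and 93.0 and 71.6 FPKM in HC (log2 -0.71 ± 0.14, limma adjusted p = 0.00619; 0.0513 without HC replicate 1). Histone H2B gene g4683 had 464 and 398 FPKM in VLC and 909 and 522 FPKM in HC (log2 -0.68 ± 0.20, limma adjusted p = 0.0354), with HC replicate 1 far above HC replicate 2 (limma adjusted p = 0.292 without it). The small differences also depended on the estimate of the spread. In the fit with library weights 67 genes passed as higher and 28 as lower. With the spread of the 4 libraries of 3 h alone 52 genes passed, 39 higher and 13 lower, and limma passed no gene of either list as lower, with 13 and 9 lower at an unadjusted p under 0.05 (6.13% of all tested genes in that fit).

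To place the called differences, VLC and HC at 3 h were each compared with the same 0 h libraries, so the comparisons are not independent. The genes were also chosen by the same libraries of 3 h, which enter both the choice and the counts. Nothing is read from the shares below. Of the 55 genes higher in VLC than in HC, 50 were called higher in VLC at 3 h than at 0 h (9.95% of all tested genes were). Of the 33 tested in HC at 3 h against 0 h, 15 were called higher (8.18% of all tested) and 2 lower (3.71%). Thus PEPCK g6884, at 9.67 and 6.14 FPKM at 0 h, was higher at 3 h in both conditions and more so in VLC (log2 5.42 in VLC and 4.06 in HC against 0 h). Hsp20 gene g6268 (log2 5.53 and 2.64), glyoxylase g9770 (5.05 and 3.54) and g8234 (3.63 and 2.33) followed the same order. Cytochrome b6-f gene g9470 was called higher in VLC against 0 h (log2 1.91) and was near 0 in HC (0.15). By contrast kinase g10398 and hypothetical gene g5408 were called lower in HC against 0 h (log2 -2.39 and -1.06) and not called in VLC (-0.47 and 0.68).

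Of the 21 genes lower in VLC than in HC, 10 of 17 tested were called lower in VLC against 0 h (4.87% of all tested genes were) and 3 higher, and 7 of 21 were called higher in HC against 0 h. Nitrate reductase g2405 had 166 and 179 FPKM at 0 h, so HC libraries stayed near that level and VLC libraries fell (log2 -1.38 in VLC and -0.13 in HC). Ankyrin gene g2883 followed the same order (log2 -2.72 and -0.68). By contrast g3279, g2801 and g6511 were called higher than at 0 h in both conditions, with log2 1.59, 1.59 and 1.29 in VLC and 3.15, 3.18 and 2.83 in HC. Gene g2456 was the 1 gene called in opposite directions, at log2 -1.92 in VLC and 2.63 in HC.

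**Figure D4:**
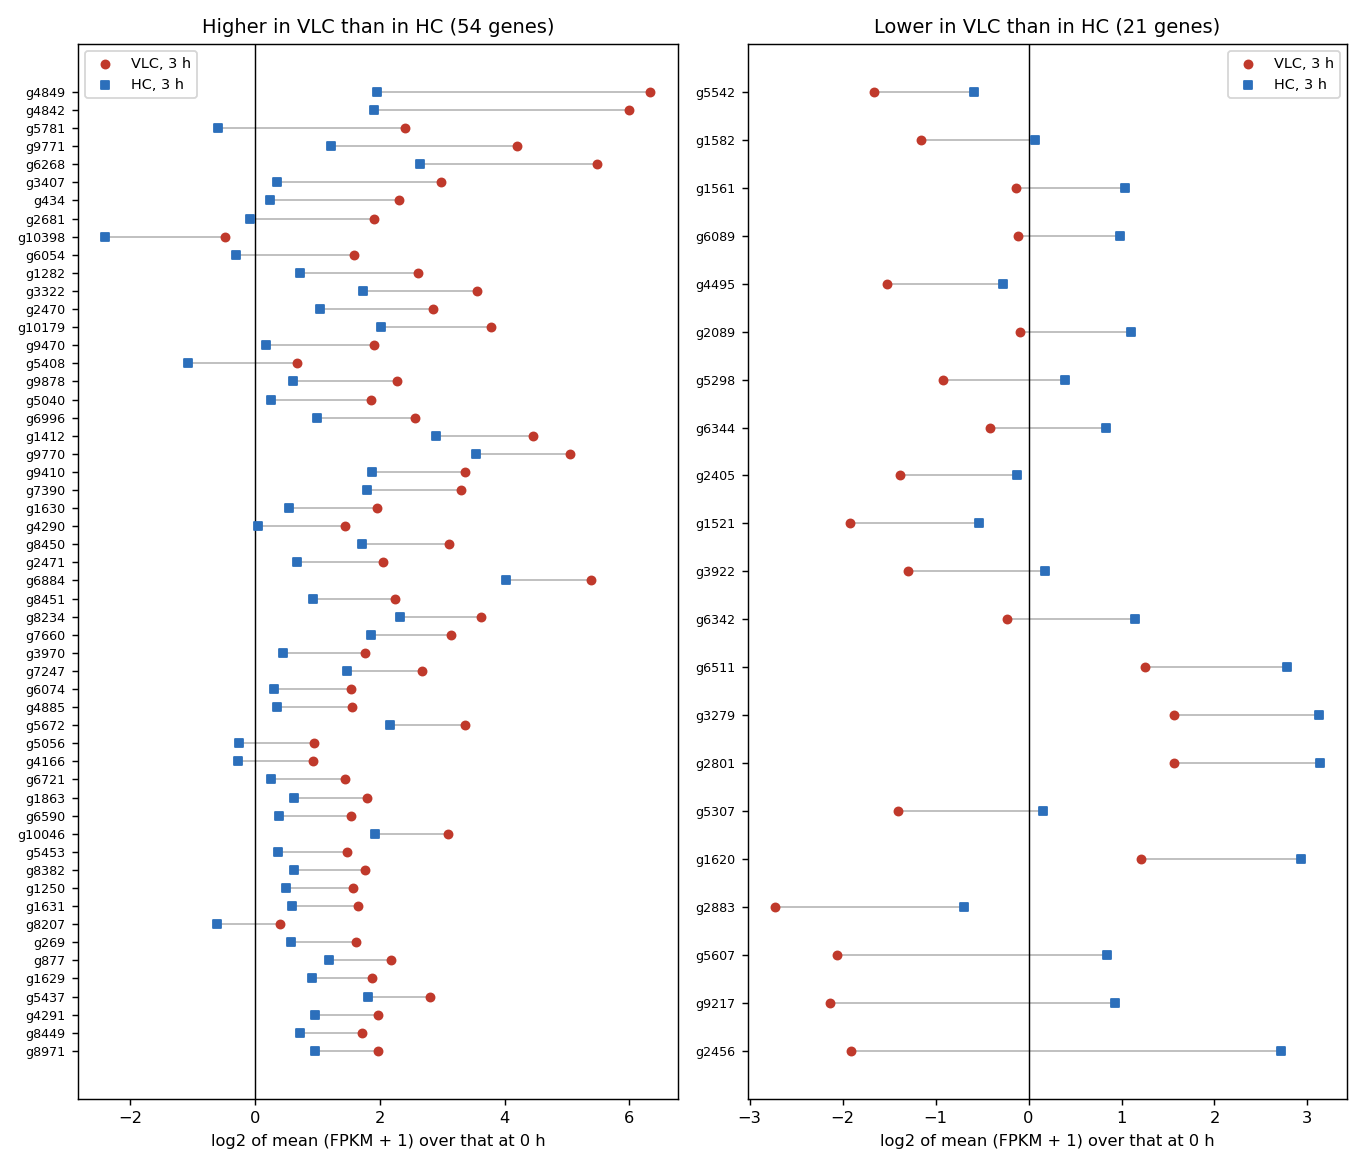
Log2 of mean (FPKM + 1) in VLC at 3 h (red circles) and HC at 3 h (blue squares) over that at 0 h, for 54 genes higher in VLC than in HC (left, without g10113, listed at 0 in HC) and the 21 lower (right), in order of their VLC/HC difference. Among higher genes most HC points already lie right of the 0 h line. That the VLC points lie further right follows from the choice of the genes. Gene g2456 has its points on opposite sides of the line.

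Many of the early rises recurred. Called again in the same direction were 23 of 49 tested higher genes at 6 h (1.84% of all tested genes were called higher there), 47 of 55 at 12 h (27.6%) and 37 of 54 at 24 h (11.2%). At 12 h the median of all tested genes was itself shifted by log2 0.58, and relative to that median 42 of 55 were called higher (8.85%). The median log2 difference of the higher genes was 1.37 at 3 h, 0.93 at 6 h, 2.36 at 12 h and 2.18 at 24 h. Of the lower genes 8 of 20 were called again at 6 h (0.252%), 11 of 19 at 12 h (4.36%) and 4 of 15 at 24 h (5.95%), and relative to the median gene 6, 11 and 5. These genes were chosen by their difference at 3 h, so its size at 3 h and later cannot be set against each other on equal terms.

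In all, 19 higher genes were called at all 4 times, 14 of them with either HC library. Ferredoxin g4849 was at log2 1.84 at 6 h and 3.26 at 24 h, and PPDK g3407 at 1.69 and 4.70. Hsp20 gene g6268 was at log2 1.71 at 6 h and 5.36 at 24 h, kinase g10398 at 1.25 and 3.77, and PPDK g5453 at 2.82 and 4.70. The other members were g4842, g5781, g434, g6054, SufD g877, and genes of unknown function that at 3 h stood as follows. Gene g5408 had 98.7 and 111 FPKM in VLC and 33.1 and 28.4 FPKM in HC (log2 1.74 ± 0.24, limma adjusted p = 4.78e-04), and g9878 had 68.6 and 89.1 FPKM in VLC and 22.9 and 25.3 FPKM in HC (log2 1.66 ± 0.15, limma adjusted p = 1.26e-05). Gene g1412 had 33.1 and 35.0 FPKM in VLC and 8.85 and 13.2 FPKM in HC (log2 1.57 ± 0.15, limma adjusted p = 1.33e-05), and g8234 had 131 and 131 FPKM in VLC and 48.1 and 57.6 FPKM in HC (log2 1.30 ± 0.17, limma adjusted p = 3.22e-04). In each of these 4 genes both VLC libraries lay above both HC libraries.

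The last members of that set lie in pairs and trios of neighbours. Gene g4290 had 24.9 and 25.1 FPKM in VLC and 9.76 and 7.84 FPKM in HC (log2 1.41 ± 0.14, limma adjusted p = 2.08e-05), and its neighbour g4291 had 23.1 and 24.5 FPKM in VLC and 11.7 and 10.9 FPKM in HC (log2 1.01 ± 0.15, limma adjusted p = 0.00104). Genes g1630 (38.3 and 36.3 in VLC against 9.32 and 17.7 in HC, FPKM; log2 1.46 ± 0.28, limma adjusted p = 0.00481), g1631 (43.6 and 42.4 in VLC against 19.1 and 21.2 in HC, FPKM; log2 1.06 ± 0.16, limma adjusted p = 9.68e-04) and g1629 (80.8 and 74.2 in VLC against 27.2 and 51.4 in HC, FPKM; log2 1.03 ± 0.23, limma adjusted p = 0.0124) lay side by side. In g1629 and g1630 HC replicate 2 was 1.89-fold and 1.90-fold above HC replicate 1. The lower genes called at all 4 times were g2456 (log2 -5.96 at 6 h and -3.11 at 24 h), g2883 (-2.37 and -1.92), nitrate reductase g2405 (-1.79 and -1.52) and g6089 (log2 -1.10 ± 0.10, limma adjusted p = 6.87e-06 at 3 h, then -1.01 and -1.996), each called with either HC library. Relative to the median gene g6089 was at log2 -0.96 at 6 h, so that 3 of these 4 genes were called at all times.

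Other early differences were not called again. At 6, 12 and 24 h the log2 differences were 0.62, 0.73 and 0.23 for isocitrate lyase g8450. Those of antiporter g8451 were 0.93, 0.91 and 0.07. At 6 and 12 h they passed the adjusted p of limma (0.00136 and 1.21e-04) but not the 2-fold rule. At 24 h the adjusted p of limma was 0.720. Relative to the median gene g8451 was at log2 0.33 at 12 h. Phosphoglycerate kinase g8382 was at log2 0.74, 0.25 and 0.67. These values passed the adjusted p of limma at each time (2.66e-04, 0.0413 and 6.95e-05) but not the 2-fold rule, and at 12 h the gene was at log2 -0.34 relative to the median gene. With them, g8449, g5672 and the leucine-rich repeat gene g8207 were the 6 higher genes called at no later time. Among lower genes 10 were called at no later time, and g4495 was called in the opposite direction at 24 h (log2 2.51). Gene g5298 was called higher in VLC at 12 h as measured (log2 1.04), but not relative to the median gene (0.46).

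**Figure D5:**
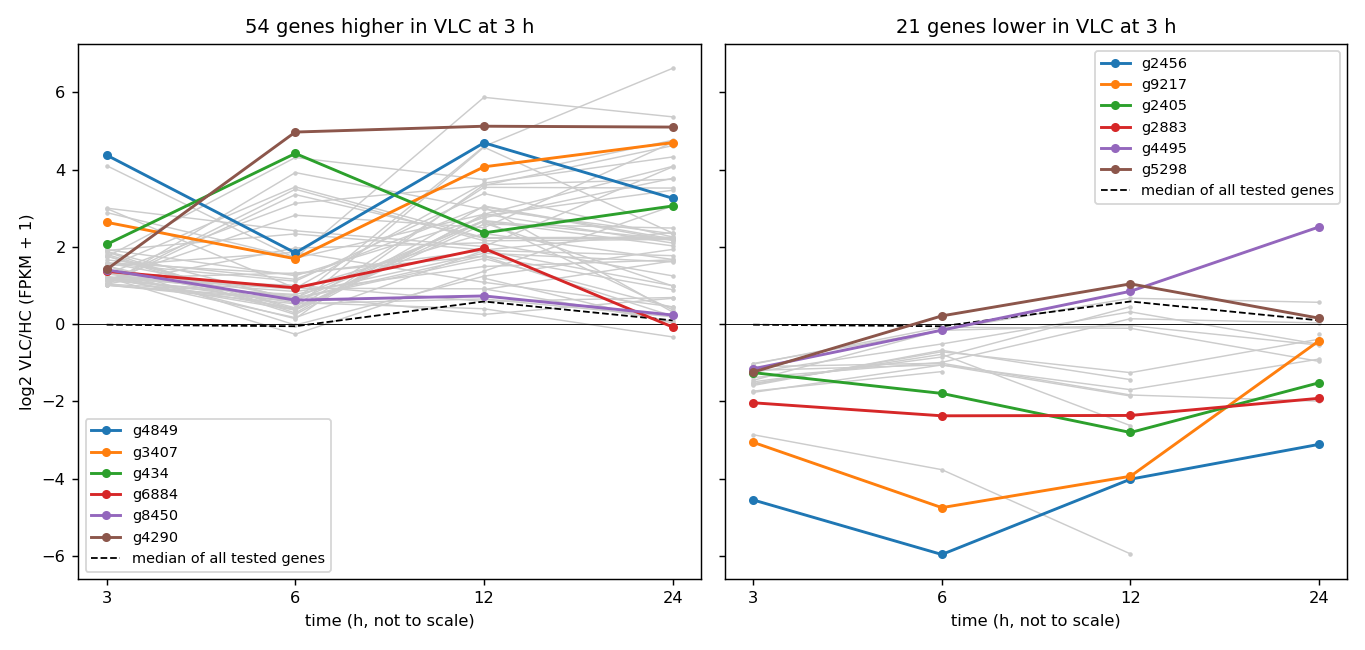
Log2 VLC/HC difference (FPKM + 1) at 3, 6, 12 and 24 h for 54 genes higher (left, without g10113, listed at 0 in HC) and the 21 lower (right) in VLC at 3 h, in grey where not named in the legend and without a point where a gene was not tested. The dashed line is the median of all tested genes, at 0.58 at 12 h, and g4495 and g5298 cross 0 among the genes that were lower at 3 h.

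Called genes sat next to each other on the scaffolds in 8 cases, 7 with both genes higher and 1 with both lower, and none in opposite directions. They were g1629, g1630 and g1631 (scaffold00043, bases 338853 to 343818), g2470 and g2471 (scaffold00070, 9416 to 12321), g4290 and g4291 (scaffold00127, 365405 to 369740), g8449, g8450 and g8451 (scaffold00295, 379935 to 388860), g9770 and g9771 (scaffold00341, 166902 to 171387) and, both lower, g6342 and g6344 (scaffold00227, 37096 to 45379). Gaps ran from 4 to 1405 bases, the largest between g6342 and g6344, whose numbers are not consecutive. No share was taken over all neighbouring tested genes, so whether called genes cluster was not tested. The libraries kept no strand, so reads that run past the end of a gene into a close neighbour cannot be told from that neighbour's own, and whether this holds for g9770 and g9771, 4 bases apart, was not tested. Glyoxylase g9770 averaged 623 FPKM in VLC and its neighbour g9771 averaged 32.7 FPKM.

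The change of the difference between 3 h and 6 h was tested directly. Over 8361 genes, the VLC/HC difference at 6 h minus that at 3 h was called for 114 (1.36%), 93 positive and 21 negative. The comparison was sensitive to the HC libraries of 3 h, with 239 genes called without HC replicate 2. The genes below were picked by their difference at 3 h, which enters this change with a negative sign. Nothing is therefore read from the balance of larger and smaller differences among them. Of the 55 genes higher at 3 h, 9 had a larger difference at 6 h and 15 a smaller one, among them Myb-like g434 (log2 2.06 at 3 h and 4.42 at 6 h) and PPDK g5453 (1.13 and 2.82) with larger differences. Ferredoxin g4849 (4.37 and 1.84), sulfide-quinone oxidoreductase g3322 (1.87 and 0.29) and glyoxylase g9770 (1.51 and -0.02) had smaller ones. In VLC at 6 h g434 had a mean of 431 and an SD of 81.4 FPKM, and g5453 a mean of 767 and an SD of 331 FPKM. Of the 21 lower genes, g2456 and g9217 were further below HC at 6 h, and g5298 was no longer below it.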

How the data were processed

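Total RNA of IMET1 cultures was sequenced as poly(A)-selected, strand-nonspecific, paired-end mRNA-Seq. The authors aligned reads with TopHat2 (version 2.0.4), left out reads mapping to several places, and deposited FPKM per gene from Cufflinks (version 2.0.2 in the submitters' processing notes). The 18 deposited columns were used and joined for 9756 genes. The FPKM hold no counts and no count test was run. The read totals listed by the study were not used here. With 2 libraries per group, p-values rest mainly on the spread pooled over groups. The HC pair of 3 h was wider than the pairs of the other groups. The pooled spread understates it, so p-values of comparisons with HC at 3 h tend to be too small.

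Log2(FPKM + 1) of 9265 genes with a mean of at least 10 FPKM in any group was fitted in limma (version 3.58.1, R 4.3.3) with 9 groups and a variance trend. Adjustment was by Benjamini-Hochberg within each comparison, over genes reaching 10 FPKM on average in either group, and a call needed an adjusted p of at most 0.05 with at least 2-fold. Differences are given as log2 ± SE. Summaries used pandas 2.3.3 and numpy 2.4.6 in Python 3.11.15, and plots matplotlib 3.10.9.

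A check on simulated data covered VLC/HC at 3 h. Its changed genes were drawn only from genes well above the 10 FPKM filter, so the rates found do not cover genes near it. With the same spread in every group (7759 genes tested), 99 of 100 genes changed 2.5-fold and 100 of 100 changed 4-fold were called, and no unchanged gene. With the wider spread of HC at 3 h (7851 genes tested), these were 93 and 100, and 9 unchanged genes were called.

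Alternatives were a pseudocount of 0.1, an FPKM filter of 1 or none, the 3 h libraries alone, library weights, centring on the median gene, a 1.5-fold rule, the replicate number as a block, and leaving out each library. The members and lists were chosen with earlier results of these data known. Named in full were the 12 largest rises, the 8 largest falls and genes called at all 4 times. Other called genes, genes of the carbon lists, the extremes of each keyword list and the 4 genes most unequal between the HC libraries in each direction were also open to naming.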

Additional observations from a re-analysis of the deposited data

Results flagged for a closer look

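In 27 of the 76 genes called at 3 h, the VLC/HC difference at 6 h differed from that at 3 h when the difference between the times was tested in limma (adjusted p of at most 0.05 and at least 2-fold). The values below are the log2 difference at 6 h minus that at 3 h. Groups of 2 libraries were not tested for a single outlying library.

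Larger differences at 6 h among genes higher in VLC were found in g4290 (3.56), g4291 (2.91), g5408 (2.57), g1631 (2.43), the Myb-like gene g434 (2.35), g1629 (2.32), g1630 (2.09), g8234 (1.82) and PPDK g5453 (1.69). These 9 genes contain both neighbours g4290 and g4291 and all of g1629 to g1631.

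Smaller differences at 6 h among genes higher in VLC were found in ferredoxin g4849 (-2.53), g4842 (-2.39), the pyridine nucleotide-disulfide oxidoreductase g9771 (-2.06), g8207 (-2.02), sulfide-quinone oxidoreductase g3322 (-1.58), glyoxylase g9770 (-1.54), g10179 (-1.52), g5056 (-1.48), g3970 (-1.47), g2470 (-1.43), cytochrome b6-f gene g9470 (-1.34), kinase g2471 (-1.23), hydroxylamine reductase g7390 (-1.14) and flavohemoglobin g4885 (-1.06). Gene g10113 also had a smaller difference (limma adjusted p = 1.65e-04 for the change between the times), with no size given because it was listed at 0 in HC at 3 h. These genes were picked by their difference at 3 h, which enters the value with a negative sign.

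Among genes lower in VLC, g9217 (-1.69) and g2456 (-1.41) lay further below HC at 6 h, and g5298 (1.45) came back towards HC. The part of the HC libraries of 3 h in these changes was not tested gene by gene.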

How the results depend on the processing

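Without the FPKM filter, with a filter of 1 FPKM, a pseudocount of 0.1, centring or the replicate block, the number of genes called at 3 h stayed within 1.5 times of 76 and at most 1 of the 76 genes was lost. The 2-replicate design and the HC pair set the limits. With the 3 h libraries alone 27 of the 76 genes were lost (51 called, 39 higher and 12 lower; 6 of the keyword lists), and with library weights 27 were lost (49 called, 39 higher and 10 lower; 4 of those lower in VLC/HC were called lower in VLC against 0 h). No called gene changed direction under any of these settings.

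Leaving out 1 library of 3 h gave between 71 and 158 called genes, 51 to 76 higher and 18 to 82 lower; the 158, the 76 and the 82 came without HC replicate 2, and 33 lower genes were called without VLC replicate 1. Leave-one-out ranges for the 3 h genes called again were 20 to 27 higher and 6 to 10 lower at 6 h, 42 to 57 higher and 11 to 14 lower at 12 h, and 34 to 42 higher and 4 to 7 lower at 24 h. For the change between 3 h and 6 h they were 78 to 239 genes, 59 to 171 positive and 17 to 68 negative, with 59 positive without VLC replicate 2 of 6 h. Against 0 h, the higher genes gave 46 to 60 higher in VLC and 14 to 17 higher and 1 to 5 lower in HC, and the lower genes gave 8 to 33 lower and 2 to 4 higher in VLC and 6 to 15 higher in HC. Carbon lists ranged from 2 to 3 genes and keyword lists from 8 to 17. Among genes named but not called, CA3 g2209 ranged from log2 -0.20 to 0.087 over the libraries left out, positive without HC replicate 1, and g10209 from -0.17 to 0.85, negative without HC replicate 2.

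A 1.5-fold rule admits more genes by construction. It called 281 genes at 3 h (165 higher and 116 lower), 128 with either HC library left out (96 and 32), 6 in the carbon lists and 36 in the keyword lists. Called again were 71, 143 and 92 higher and 26, 21 and 41 lower genes at 6, 12 and 24 h. The change between 3 h and 6 h was called for 244 genes (177 positive and 67 negative). Against 0 h the higher genes gave 139 higher in VLC and 62 higher and 13 lower in HC, and the lower genes 48 lower and 7 higher in VLC and 39 higher in HC. With an FPKM filter of 1 or none, 37 higher genes were called again at 6 h.

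No shared deviation was seen between libraries of the same replicate number. This does not tell whether they came from the same culture. The deviations of same-numbered libraries from their group means correlated at 0.00 between VLC and HC at 3 h and between -0.18 and 0.13 over all pairs of groups, and with the replicate block 77 genes were called at 3 h, 56 higher and 21 lower.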
